A study of Mus musculus with 13 samples.

Results

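The genes described here form a set named for activators of the circadian clock and clock genes whose RNA peaks near dawn. They are Bmal1 (Arntl in older annotation), Npas2, Clock, Cry1, Cry2, Nfil3 and Rora, 7 of the 36109 genes that could be matched. The name does not hold for every member. Cry1, Cry2 and Nfil3 encode repressors, and Cry2 and Rora moved opposite to Bmal1 in KO hearts. They were chosen by name and known role, with earlier results of these data known. All 7 passed the filter on low counts in both tissues. RNA was sequenced from whole hearts of 4 Hmox2+/+ and 3 Hmox2-/- mice and from aortic endothelial cells (ECs) of 3 Hmox2+/+ and 3 Hmox2-/- mice. Hmox2-/- mice carry a deletion of heme oxygenase 2, an enzyme that cleaves heme and releases carbon monoxide, and Hmox2+/+ mice were their wild-type littermates. All mice were kept in room air. EC RNA was taken by flushing the aortic lumen with TRI Reagent and heart RNA from pulverized frozen hearts, with a different kit for each, so tissue and kit cannot be told apart. The labels describe matched EC and heart samples but do not say which libraries share a mouse. The sequenced mice of all groups were young, with no exact age stated for them. Their sex and the hour at which tissue was collected are not given in the sources used here, so hour of collection and genotype cannot be told apart for genes that vary with the time of day. Libraries are named by tissue, genotype (WT for Hmox2+/+, KO for Hmox2-/-) and replicate number, for example heart KO 1.

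The molecular clock is a feedback loop of transcription. BMAL1 pairs with CLOCK or NPAS2 and activates genes that carry E-boxes, among them the Period, Cry, Rev-erb (Nr1d1, Nr1d2) and Dbp genes. CRY proteins then repress that pair, while REV-ERB repressors and ROR activators compete for the same elements in genes such as Bmal1, Npas2, Cry1 and Nfil3, whose RNA peaks in the opposite phase to that of Dbp and Nr1d1. In heart and vessel wall the loop runs in most cells and sets daily rhythms of metabolism, conduction and vascular tone.

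In the heart, Bmal1, Cry1 and Nfil3 were higher and Cry2 and Rora lower in Hmox2-/- than in Hmox2+/+ mice, while the tests of Npas2 and Clock did not pass. Bmal1 had the largest difference of the 7, 2.98-fold. In aortic EC libraries no gene of the 7 passed the test, and Bmal1, Npas2 and Nfil3 differed more among the 3 Hmox2-/- libraries than between genotypes. Libraries held 26067147 to 31619776 estimated counts, except heart WT 1 with 7268626. Hmox2 fell in both tissues (37.3 to 42.5 CPM in WT hearts, 7.53 to 8.9 in KO hearts, 63.9 to 76.2 in WT ECs and 12.6 to 14.7 in KO ECs, where CPM scales counts to the TMM-normalized library size). EC KO 2 and EC KO 3 stand apart in the Y-linked gene Ddx3y, at 1.03 and 0.92 CPM. It was 86.4 CPM in EC KO 1 and 61.7 to 66.8 CPM in WT ECs. Results that rest on EC KO 1 are given with and without it. Without EC KO 1, the KO ECs have almost no Ddx3y and the WT ECs do have it. That difference and genotype cannot be told apart in those results. EC KO 2 and EC KO 3 are also part of the main EC and interaction fits. There, too, the difference in Ddx3y and genotype cannot be fully told apart. In hearts Ddx3y was 61.6 to 86.5 CPM in WT and 37.0 to 50.9 CPM in KO libraries. By this gene, EC KO 2 and EC KO 3 do not match any KO heart as samples of the same mouse.

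The stretches of promoter below show where letters of the motifs that clock proteins are known to bind occur near the start of 4 members. The RefSeq table of promoter windows, 250 bases before to 50 after a start on GRCm38.p6, matched 7 of 7 members with 10 windows, and 4 of these held one of the motifs searched on both strands. The motifs were the E-box CACGTG, held by 7.15% of all 32851 windows, its variant CACGTT or AACGTG (4.68%), the core TAGGTCA or TGGGTCA shared by ROR and REV-ERB (6.45%, read on the other strand as TGACCTA or TGACCCA) and the D-boxes TTATGTAA, TTACATAA and TTACGTAA (1.06%), which NFIL3 and DBP bind. The letters in capitals mark the match. Bmal1 and Nfil3 are shown for the ROR and REV-ERB core, Cry1 and Cry2 for E-box letters. A match is a description of these letters only.

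Bmal1, chr7:113207530-113207559, plus strand, 20 to 49 bases after a start:
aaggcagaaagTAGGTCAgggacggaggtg
Nfil3, chr13:52981040-52981139, minus strand, 100 to 1 bases before the start:
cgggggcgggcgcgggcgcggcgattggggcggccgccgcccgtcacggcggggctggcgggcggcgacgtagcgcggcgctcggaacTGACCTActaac
Cry1, chr10:85185075-85185174, minus strand, 120 to 21 bases before the start:
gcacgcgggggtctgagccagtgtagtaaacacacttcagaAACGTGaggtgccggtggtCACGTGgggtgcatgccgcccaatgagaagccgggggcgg
Cry2, chr2:92434170-92434269, minus strand, 200 to 101 bases before the start:
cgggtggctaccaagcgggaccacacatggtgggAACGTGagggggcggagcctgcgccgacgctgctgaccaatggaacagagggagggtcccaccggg

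The windows of Npas2, Clock and Rora held none of these letters. Bmal1 and Nfil3, which hold the ROR and REV-ERB core, were both higher in KO hearts. Cry1 and Cry2, which hold E-box letters, moved in opposite directions there. A link between these letters and the direction of change was not tested.

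Levels per transcript length (TPM, the share of a transcript per unit of its length, scaled to a fixed sum) set the members in order. In WT hearts Cry2 stood highest at 9.36 ± 0.8 TPM (SD, n = 4), followed by Clock at 5.88 ± 0.802 and Rora at 3.56 ± 0.529, each above the next in every library. Nfil3 (2.32 ± 0.514), Cry1 (1.57 ± 0.214), Bmal1 (1.55 ± 0.839) and Npas2 (0.793 ± 0.317 TPM) followed, and each of these overlapped its neighbour. The order differed in KO hearts, where Clock, Cry2, Nfil3 and Bmal1 lay at 6.68 ± 2.44, 6.14 ± 1.52, 5.41 ± 1.11 and 5.06 ± 1.26 TPM (SD, n = 3) and overlapped one another in turn. In WT ECs Cry2 was again highest at 16.1 ± 3.91 TPM (SD, n = 3), Nfil3 came next at 7.49 ± 2.09 and overlapped Clock at 5.53 ± 0.734, and Npas2 was lowest at 1.59 ± 0.781 TPM. In the fit of all 13 libraries, WT hearts held more Clock (log2 fold change 0.98, SE 0.18, edgeR adjusted p = 0.00027), Rora (1.07, SE 0.17, adjusted p = 6.21e-05) and Cry1 (0.78, SE 0.28, adjusted p = 0.0229) than WT ECs. That is 3 of 7 members in a comparison that called 65.8% of 15938 genes, 32.1% of all genes as higher in heart. Cry1 lost the call when heart WT 1, heart WT 3, EC WT 1 or EC WT 3 was left out (adjusted p 0.0553 to 0.096).

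Bmal1 (chromosome 7, 112806152 to 112914735, plus strand of GRCm39) encodes the partner that CLOCK and NPAS2 share. In WT hearts it measured 7.14, 4.95, 2.06 and 2.97 CPM in libraries 1 to 4, and in KO hearts 9.08, 13.5 and 12.6 CPM in libraries 1 to 3. Every KO heart was above every WT heart, although the WT hearts themselves spread 3.47-fold. The log2 fold change was 1.58 (SE 0.31, 95% interval 0.89 to 2.26, adjusted p = 0.00413 by edgeR's quasi-likelihood test), from 4.28 ± 2.26 CPM (SD, n = 4) to 11.7 ± 2.33 CPM (SD, n = 3). Bmal1 was called under every alternative tried in heart. The reads behind these values were few, 48 to 143 estimated counts in WT and 309 to 446 in KO hearts. Of its 6 listed transcripts, 2 had a mean of at least 0.1 TPM. The longer of these, Bmal1-201 (2908 bases), was 0.501 to 1.82 TPM in WT and 3.54 to 4.92 TPM in KO hearts, without overlap. Bmal1-206 (2464 bases) was 0.0964 to 0.71 TPM in WT and 0.0205 to 1.56 TPM in KO hearts, with overlap. How counts are split between transcripts of 1 gene is an estimate of the pseudoaligner.

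Npas2 (chromosome 1, 39232705 to 39402323, plus strand), the alternative partner of BMAL1, was not called in KO hearts. It was 4.31, 3.57, 1.56 and 3.19 CPM in WT hearts 1 to 4 and 2.85, 2.9 and 3.29 CPM in KO hearts 1 to 3. All KO values lay inside the WT range, with a log2 fold change of -0.01 (95% interval -0.62 to 0.61, adjusted p = 0.986), so a change of either sign up to that interval is compatible with these libraries. Among the 4 WT hearts, Npas2 and Bmal1 had the same order (WT 1 highest, then WT 2, WT 4 and WT 3), as a description over 4 libraries of which WT 1 is the shallowest, with 29 estimated counts of Npas2. Of 6 genes of the opposite phase looked at, Per2, Per3, Ciart and Hlf had the reverse order in those 4 hearts and Dbp and Nr1d1 did not. Rora, a member, also had the reverse order.

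Clock (chromosome 5, 76342860 to 76452846, minus strand), the other partner, was 54.0, 48.6, 47.2 and 45.0 CPM in WT hearts 1 to 4. In KO hearts 1 to 3 it was 34.1, 39.7 and 55.8 CPM. Heart KO 3 lay above all WT hearts and the other 2 KO hearts below them. The log2 fold change was -0.17 (95% interval -0.50 to 0.16, adjusted p = 0.418). It became -0.39 (adjusted p = 0.0149) without heart KO 3 and 0.45 (adjusted p = 0.00252) with an offset for transcript length and GC content. The sign of the Clock difference in heart therefore depended on the processing. Of the 31-base words of Clock transcripts 8.18% also occur elsewhere, for example in Tmem165, a gene on the opposite strand of the locus.

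**Figure D1:**
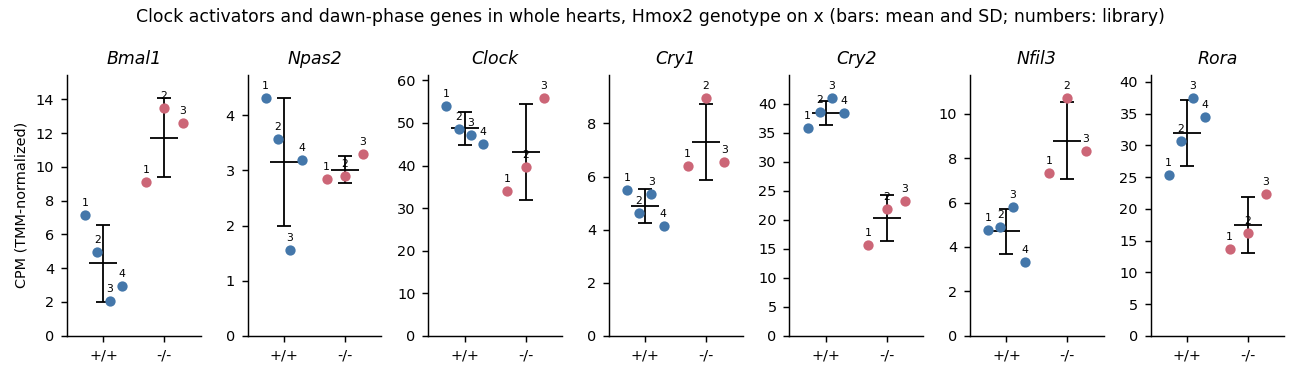
CPM (y axis, linear from 0, a scale of its own per gene) of the 7 genes in each whole-heart library, Hmox2+/+ in blue (n = 4) and Hmox2-/- in red (n = 3), with mean and SD in black and the replicate number beside each point. Bmal1, Cry1 and Nfil3 of all KO hearts sit above all WT hearts, Cry2 and Rora below them, and Npas2 and Clock overlap.

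The Cry genes encode the repressors of the loop, and they moved in opposite directions in KO hearts. Cry1 (chromosome 10, 84967560 to 85021252, minus strand), whose RNA is known to peak later than that of the other E-box genes, was 5.5, 4.61, 5.33 and 4.14 CPM in WT hearts 1 to 4. In KO hearts 1 to 3 it was 6.4, 8.95 and 6.55 CPM, all above the WT hearts. The log2 fold change was 0.60 (SE 0.17, 95% interval 0.22 to 0.97, adjusted p = 0.021). The call was lost without heart WT 2 (adjusted p = 0.0534), heart WT 4 (0.0667) or heart KO 2 (0.116), and in the fit of all 13 libraries (0.59, adjusted p = 0.124).

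Cry2 (chromosome 2, 92233894 to 92264474, minus strand) was the highest of the 7 per transcript length in WT hearts, though not in CPM, where Clock was higher in each of them. It was 35.8, 38.6, 40.9 and 38.4 CPM in WT hearts 1 to 4 and 15.7, 21.8 and 23.2 CPM in KO hearts 1 to 3. Every KO heart lay below every WT heart, and the WT hearts spread only 1.14-fold. The log2 fold change was -0.93 (SE 0.13, 95% interval -1.22 to -0.64, adjusted p = 0.000836), with 38.4 ± 2.07 CPM (SD, n = 4) in WT and 20.2 ± 3.97 CPM (SD, n = 3) in KO hearts. In terms of TPM, Cry1 was 0.14 to 0.205 of Cry2 in WT hearts and 0.377 to 0.54 in KO hearts, ranges that do not overlap. That follows from the TPM of each gene, which did not overlap between genotypes either.

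Nfil3 (chromosome 13, 53121245 to 53137010, minus strand) encodes a repressor of D-box genes that opposes DBP, TEF and HLF. It was 4.76, 4.92, 5.79 and 3.33 CPM in WT hearts 1 to 4 and 7.34, 10.7 and 8.32 CPM in KO hearts 1 to 3. The groups did not overlap, and the log2 fold change was 0.91 (SE 0.20, 95% interval 0.47 to 1.34, adjusted p = 0.00666). In the fit of all 13 libraries, which shares 1 estimate of spread with the EC libraries, its log2 fold change was the same 0.91 and the call was lost (adjusted p = 0.102).

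Rora (chromosome 9, 68561068 to 69295528, plus strand) encodes an activator of Bmal1 that competes with REV-ERB. It was 25.3, 30.7, 37.4 and 34.4 CPM in WT hearts 1 to 4 and 13.7, 16.2 and 22.3 CPM in KO hearts 1 to 3. The groups did not overlap in CPM, with a log2 fold change of -0.89 (SE 0.17, 95% interval -1.27 to -0.51, adjusted p = 0.00393). Per transcript length they did overlap, at 2.79 to 3.96 TPM in WT and 2.71 to 3.87 TPM in KO hearts. The longest transcript, Rora-201 (10878 bases), was 2.0 to 2.74 TPM in WT and 1.16 to 2.25 TPM in KO hearts. With the offset for length and GC content the log2 fold change was -0.32 (adjusted p = 0.0436), and with length-scaled TPM in place of counts it was -0.55 (adjusted p = 0.0243). Over all genes tested in heart, the median log2 fold change was 0.30 for mean transcript lengths under 2 kb, -0.04 at 2 to 4 kb, -0.27 at 4 to 6 kb and -0.51 over 6 kb. Rora and Clock, with mean lengths of 7553 and 7909 bases, are in the last bin, and the other 5 members, at 2026 to 3992 bases, are in the second.

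In all, 5 of 7 members passed the test in heart, 3 higher and 2 lower, where 33.4% of 13816 genes passed, 17.2% higher and 16.2% lower. The groups did not overlap for the same 5 members, against 40.4% of all genes (20.6% higher and 19.8% lower). Under the criteria the study uses for a differentially expressed gene, an adjusted p of at most 0.05 and a change of at least 2-fold, only Bmal1 remained, where 6.71% of genes met both. The median log2 fold change of the 7 was -0.01, as was that of all genes, since the members moved both ways.

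**Figure D2:**
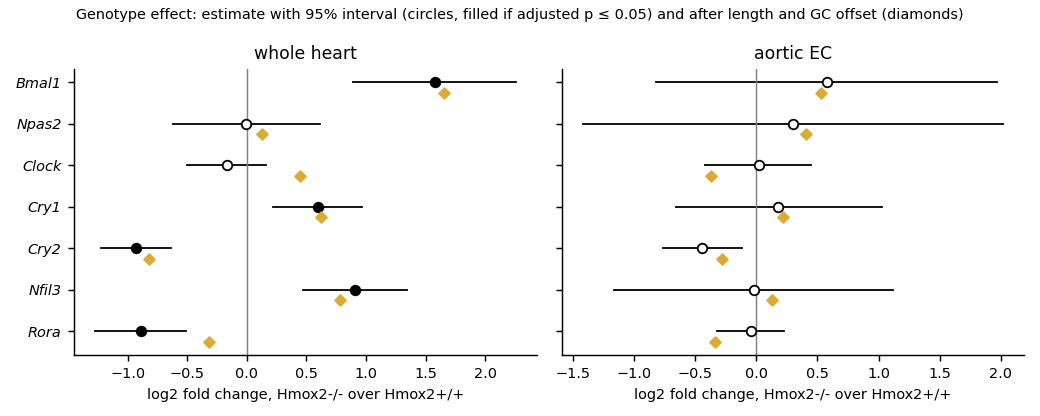
Log2 fold change (x axis) of Hmox2-/- over Hmox2+/+ for the 7 genes in whole heart (left) and aortic EC libraries (right). Circles with 95% intervals are the edgeR estimates, filled where the adjusted p was at most 0.05, and yellow diamonds are the estimates with an offset for length and GC content. In heart the 5 filled genes run from -0.93 for Cry2 to 1.58 for Bmal1, in ECs no circle is filled, and the diamonds move Clock and Rora most.

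In the heart the summed TPM of every marker list was higher in KO libraries, that of cardiomyocyte markers included. These sums therefore do not give the shares of cell types. The summed level of 6 erythroid markers was 341 to 779 TPM in WT and 2420 to 3510 TPM in KO hearts, with 5 of 6 higher in every KO library. That of 8 leukocyte markers was 53.4 to 75.9 and 140 to 213 TPM (4 of 8 higher), and that of 10 endothelial markers 164 to 236 and 271 to 299 TPM (4 of 10 higher). Cardiomyocyte markers defined the tissue, at 35000 to 44800 TPM in WT and 56100 to 65100 TPM in KO hearts (6 of 10 higher, 1 lower). Smooth muscle markers summed to 479 to 673 TPM in WT and 860 to 1010 TPM in KO hearts (4 of 8 higher), fibroblast markers to 218 to 269 and 327 to 399 TPM (3 of 8 higher) and adipocyte markers to 12.7 to 15.5 and 20.5 to 21.0 TPM (2 of 6 higher). These counts of markers are in TPM, a scale on which the share of all genes was not counted. In CPM, 20.6% of all genes lay higher in every KO heart and 19.8% lower. Shorter transcripts were also higher in this comparison, with a median log2 fold change of 0.30 under 2 kb and -0.51 over 6 kb. The part of transcript length in the marker sums was not tested, nor was the part of the markers in the differences of the 7 members. In whole tissue, fewer cells of a type and less RNA per cell cannot be told apart.

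In aortic EC libraries, Bmal1, Npas2 and Nfil3 were high in the same 2 libraries, 1 of each genotype. Bmal1 was 7.64, 5.21 and 3.58 CPM in WT ECs 1 to 3 and 16.5, 3.1 and 4.86 CPM in KO ECs 1 to 3. Npas2 was 10.6, 2.67 and 4.45 CPM in WT and 15.6, 3.26 and 2.91 CPM in KO ECs. Nfil3 was 20.8, 9.46 and 10.7 CPM in WT and 23.2, 6.13 and 11.0 CPM in KO ECs. For each of these genes EC KO 1 was highest and EC WT 1 second, and the genotypes overlapped.

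The log2 fold changes in ECs were 0.58 for Bmal1 (95% interval -0.82 to 1.97, adjusted p = 0.523), 0.30 for Npas2 (-1.42 to 2.02, adjusted p = 0.799) and -0.02 for Nfil3 (-1.16 to 1.12, adjusted p = 0.982). Each interval includes the change of the same gene in heart, so a difference was not detectable with these libraries, which does not show that it was absent. Without EC KO 1, they were -0.46 for Bmal1, -0.94 for Npas2 and -0.67 for Nfil3 (adjusted p 0.461, 0.313 and 0.317). With EC KO 1 as the lone KO library, assumed to vary like the WT ECs, they were 1.60, 1.41 and 0.77 (adjusted p 0.218, 0.388 and 0.455). Leaving out EC KO 1 thus turned the sign for Bmal1 and Npas2. Npas2 also turned without EC WT 2 (-0.05), and Nfil3 turned without EC WT 1 (0.42), EC KO 2 (0.33) or EC KO 3 (0.11).

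**Figure D3:**
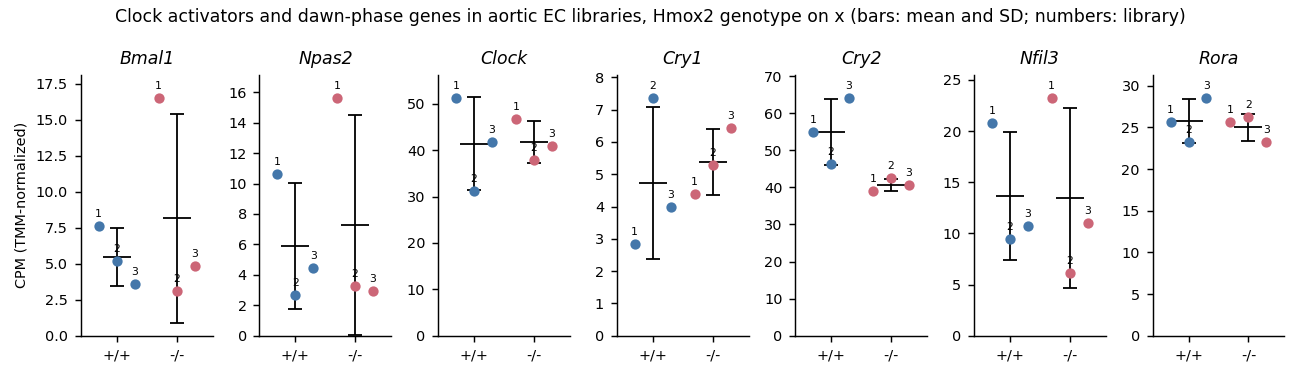
CPM (y axis, linear from 0, a scale of its own per gene) of the 7 genes in each aortic EC library, Hmox2+/+ in blue and Hmox2-/- in red (n = 3 each), with mean and SD in black and the replicate number beside each point. EC KO 1 and EC WT 1 are the highest libraries for Bmal1, Npas2 and Nfil3, and Cry2 alone has all KO points below all WT points.

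The other members varied less. Clock was 51.2, 31.2 and 41.7 CPM in WT and 46.8, 37.9 and 40.9 CPM in KO ECs (log2 fold change 0.02, 95% interval -0.42 to 0.45, adjusted p = 0.955), and EC WT 1 and EC KO 1 were again its 2 highest libraries. Rora was 25.7, 23.2 and 28.5 CPM in WT and 25.7, 26.2 and 23.2 CPM in KO ECs, with the narrowest interval of the 7 (log2 fold change -0.04, 95% interval -0.32 to 0.23, adjusted p = 0.819). Cry1 was 2.84, 7.35 and 3.99 CPM in WT and 4.39, 5.29 and 6.44 CPM in KO ECs, and it had its lowest value in EC WT 1 (log2 fold change 0.18, 95% interval -0.66 to 1.03, adjusted p = 0.746).

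Cry2 was the member of the 7 nearest to a call in ECs. It was 54.9, 46.2 and 64.0 CPM in WT and 39, 42.4 and 40.6 CPM in KO ECs, so that every KO library lay below every WT library. The log2 fold change was -0.44 (SE 0.14, 95% interval -0.76 to -0.12, unadjusted p = 0.0138 in edgeR's fit, adjusted p = 0.0643). DESeq2 gave the same size and an adjusted p of 0.0334. Cry2 was thus 1 of 7 members without overlap between genotypes, where 40.7% of 15301 genes had none and 18.7% lay lower in KO. None of the 7 passed edgeR's test, where 18.1% of genes did. At an unadjusted p under 0.05, 1 of 7 passed, against 35.3% of genes. DESeq2 called 1 of 7, where it called 4033 of the 15301 genes.

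The EC libraries held RNA of several cell types. The summed level of 10 endothelial markers was 940 to 1810 TPM in WT and 2020 to 2220 TPM in KO ECs, with 6 of 10 higher and 1 lower in every KO library. That of 6 adipocyte markers was larger, 3910 to 5630 TPM in WT and 3720 to 4080 TPM in KO ECs (3 of 6 lower). Smooth muscle markers summed to 2020 to 3220 TPM in WT ECs, 2300 TPM in EC KO 1, 613 TPM in EC KO 2 and 669 TPM in EC KO 3, with 3 of 8 lower in every KO library. Cardiomyocyte markers summed to 111 to 695 TPM in WT and 8.24 to 11.5 TPM in KO ECs (9 of 10 lower), and 5 of the 10 were under 1 TPM in every KO EC library. Fibroblast markers summed to 1250 to 2370 and 2690 to 3600 TPM (4 of 8 higher), leukocyte markers to 187 to 352 and 380 to 777 TPM (2 of 8 higher, 1 lower), and erythroid markers to 4730 to 9630 and 3980 to 8920 TPM (0 of 6 without overlap). The counts of markers are again in TPM, without a share of all genes on that scale. In CPM, 40.7% of all genes had no overlap between genotypes in ECs, and 18.7% lay lower in KO. The part of the markers in the EC values of the members was not tested.

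Whether the genotype effect differed between tissues was tested as an interaction, heart effect minus EC effect, over 15938 genes of which 28.8% passed, 12.7% with a lower effect in heart. Of the 7 members 1 passed, Rora, with a difference of -0.80 (SE 0.24, 95% interval -1.32 to -0.28, adjusted p = 0.0242). That difference was -0.27 with length-scaled TPM (adjusted p = 0.406) and 0.02 with the offset for length and GC content (adjusted p = 0.965), and its call was also lost without any 1 of heart WT 3, heart WT 4, EC WT 2, heart KO 1, heart KO 2 and EC KO 2 (adjusted p 0.0516 to 0.0701). For Bmal1 the difference was 1.01 (95% interval -0.55 to 2.57, adjusted p = 0.318) and for Nfil3 0.96 (-0.22 to 2.14, adjusted p = 0.207). Without EC KO 1 these became 2.05 (adjusted p = 0.0161) and 1.62 (adjusted p = 0.0182). The KO ECs of that fit, EC KO 2 and EC KO 3, are those with almost no Ddx3y. For Cry2, lower in KO libraries of both tissues, the difference was -0.45 (95% interval -0.88 to -0.02, adjusted p = 0.108).

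The clock genes of the opposite phase are targets of the BMAL1 pair. In heart 11 of the 12 genes of that list were called lower, where 16.2% of all genes were. The median log2 fold change of the list was -1.16 beside -0.01 for all genes. Dbp, a D-box activator, fell by 1.66 on the log2 scale (adjusted p = 0.000159), Per1, a Period repressor, by 1.12 (adjusted p = 0.000651), Nr1d1, which encodes REV-ERB alpha, by 0.99 (adjusted p = 0.000657) and Bhlhe41, a repressor at E-boxes, by 1.20 (adjusted p = 6.2e-05). Rorb, a ROR gene at low level (-1.04, adjusted p = 0.0227), and the Bmal1 paralog Bmal2 (-1.13, adjusted p = 0.0325) fell too, at levels of at most 2.27 CPM.

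In ECs 0 of the 12 passed edgeR's test, where 18.1% of all genes did. At an unadjusted p under 0.05 in that test, 1 of the 12 passed, against 35.3% of all genes. For 10 of the 12 the lowest 2 EC libraries were EC KO 1 and EC WT 1, the libraries in which Bmal1, Npas2, Clock and Nfil3 were highest. Of all 15301 genes 4.91% had these 2 libraries lowest and 4.46% had them highest. This split of the EC libraries was seen in the values and is a description of 6 libraries. Dbp was 63.0, 141 and 124 CPM in WT and 18.8, 100 and 71.4 CPM in KO ECs.

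**Figure D4:**
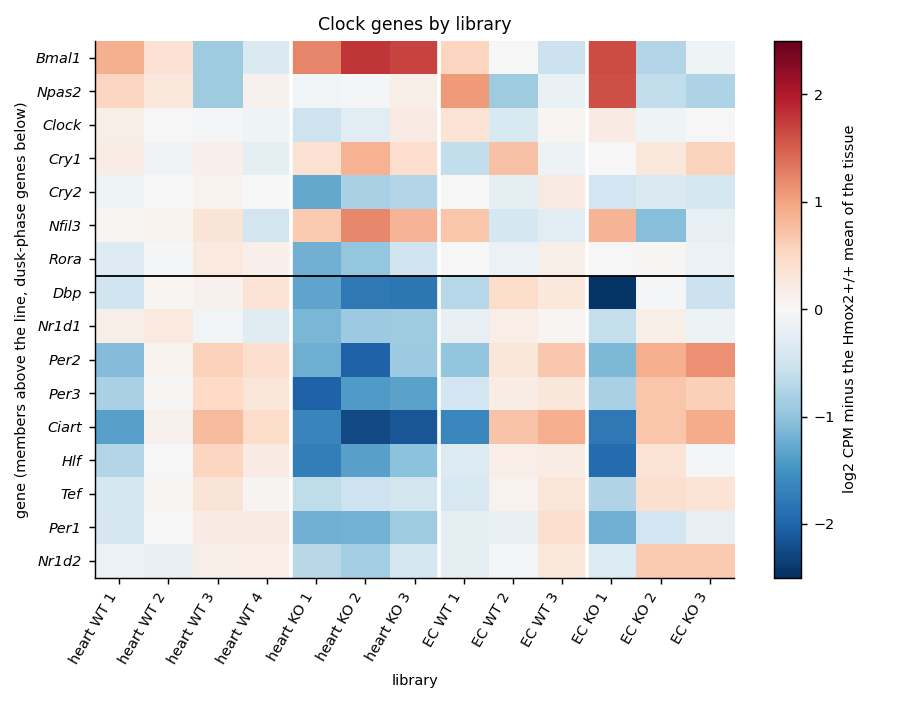
Log2 CPM minus the Hmox2+/+ mean of the same tissue (color) for the 7 members above the line and 9 of the 12 genes of the opposite phase below it (rows), in 13 libraries (columns, white lines between groups). KO hearts are red for Bmal1 and blue for Dbp, Per3, Ciart and Hlf, and of the EC libraries EC KO 1, and less so EC WT 1, show these colors.

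The balance of Dbp and Bmal1 restates these values for single libraries, as a ratio of TPM. It was 15.8, 31.3, 78.3 and 53.6 in WT hearts 1 to 4 and 7.4, 3.52 and 3.93 in KO hearts 1 to 3, with no overlap. In heart neither gene overlapped between genotypes in TPM and they moved in opposite directions, so the ratio could not overlap and adds no separate result. In ECs it was 15.9, 51.6 and 73.7 in WT and 2.25, 61.4 and 31.2 in KO libraries 1 to 3. EC KO 1 was thus below every KO heart, and EC KO 2 and EC KO 3 lay within the range of the WT ECs.

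**Figure D5:**
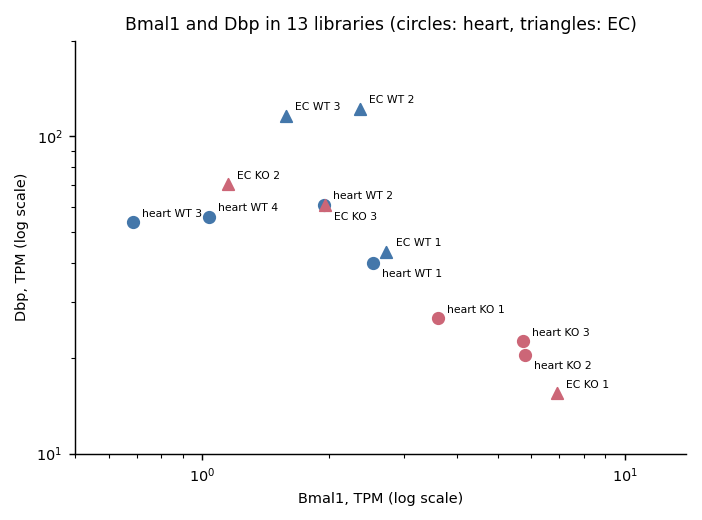
Bmal1 (x axis) and Dbp (y axis) in TPM on log scales in 13 libraries, circles for heart and triangles for EC, blue for Hmox2+/+ and red for Hmox2-/-. The 3 KO hearts and EC KO 1 lie at the lower right, with more Bmal1 and less Dbp than the other 9 libraries.

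Genes that modify clock proteins and genes known to follow the clock were counted next. Of 17 kinases, phosphatases, deacetylases and ubiquitin enzymes tested in heart, 1 rose (Csnk2b, a casein kinase 2 subunit, 0.41) and 7 fell, among them Sirt1, a deacetylase (-0.79), Usp2, a deubiquitinase (-0.59), Ppp1cb, a phosphatase subunit (-0.46), and Usp7, a deubiquitinase (-0.39). These 8 of 17 stand beside 33.4% of all genes called in heart, and the median log2 fold change of the 17 was -0.19. With the offset for length and GC content Csnk2b (0.02), Ppp1cb (-0.06) and Usp7 (-0.16) were no longer called. Of 21 rhythmic output genes 3 rose, Bdh1, an enzyme of ketone body metabolism (1.46), Por (0.36) and Fkbp5 (0.70), and 6 fell, among them Pdk4, a kinase that restrains glucose oxidation (-1.14), Ucp3 (-1.20), Coq10b (-0.78) and Klf9 (-0.56). These are 9 of 21 beside the same 33.4% of all genes, and the median of the 21 was -0.02. The heart values of the named genes in these lists are log2 fold changes with edgeR adjusted p of 2.53e-05 to 0.0304. In ECs, 2 of 18 genes of the first list and 2 of 20 of the second passed, below the 18.1% of all genes called there. Sirt1 rose (0.46, adjusted p = 0.0259) and Prkaa2, a subunit of AMP-activated kinase, fell (-0.90, adjusted p = 0.0213), Pdk4 (-1.05, adjusted p = 0.0374) and Tcap, a sarcomere gene (-2.69, adjusted p = 0.00271), fell, and Rorb rose from 0.0618 to 0.295 CPM in WT to 2.98 to 3.86 CPM in KO ECs. Tcap moved with the cardiomyocyte markers given above. With the offset for length and GC content Sirt1 was -0.15 in ECs (adjusted p = 0.379), and Sirt1, Prkaa2 and Pdk4 each lost the EC call when certain single libraries were left out (adjusted p up to 0.0962, 0.0725 and 0.12).

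The genes most like Bmal1 and Npas2 were sought over 13 libraries among 11397 genes, by the root mean square (RMS) difference of log2 CPM centred on the WT mean of each tissue. Nearest to Bmal1, itself 1.01 from its WT means, were Tlcd4 (0.53), Bcat2 (0.56), Alas2, an erythroid enzyme (0.57), Cdkn1a, a cell cycle inhibitor (0.58), and Spon2 (0.59). The profiles nearest to its mirror image were closer, Hlf (0.35), Per3 (0.42) and Bhlhe41 (0.43), all genes of the opposite phase. Nearest to Npas2, itself 0.72 from its WT means, were Adamts4 (0.45), Phlda1 (0.48), Fam110b (0.48), Ntf3 (0.49) and Tafa5 (0.51), and nearest to its mirror image Nlrc5 (0.43), Tsc22d3 (0.45) and Zgrf1 (0.46). The lists of the 2 genes had no name in common.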

How the data were processed

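The authors sequenced paired ends, pseudoaligned the reads with kallisto 0.44.0, 1 library at a time, and deposited an estimated count and a TPM value per transcript. The methods name GENCODE M32, while the submitters' processing notes name mm10 and GRCh38.p13. Effective lengths were identical in all 13 libraries, and whether the reads were pseudoaligned as pairs is not stated. By identifier without version, 115140 of 118489 transcripts (97.2%) were matched to GENCODE M39, and the rest held 0.755% to 1.01% of counts. Estimated counts and TPM were summed per gene, and counts were rounded. Genes kept by filterByExpr (minimum count 10) were TMM-normalized and tested with edgeR 4.0.16 (quasi-likelihood F-test, R 4.3.3), within each tissue, or over all libraries for the interaction and the tissues. Calls required an edgeR p of 0.05 or less after Benjamini-Hochberg adjustment over the whole table. Biological coefficients of variation were 0.241 (ECs), 0.149 (heart) and 0.201 (all libraries). Scripts were tested on simulated counts. p-values measure the spread between these libraries.

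All 7 members were named, with Hmox2 and Ddx3y as checks. From each other clock list up to 4 called genes per tissue and direction with the smallest p were named, with any gene that completes a count of 5 or fewer, and for Bmal1 and Npas2 the 5 most alike and 3 mirrored genes. The members and lists were chosen with earlier results of these data known. Alternatives were DESeq2 1.42.0, other normalizations, no filter, length-scaled TPM, an offset for length and GC content, a replicate block, 1 fit of 13 libraries, no mitochondrially encoded genes, a 2-fold minimum and leaving out libraries. 1 gene of the clock lists is not reported here.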

Additional observations from a re-analysis of the deposited data

Results flagged for a closer look

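The genotype effect on Rora differed between tissues by a test of the difference itself: the log2 fold change in heart minus that in ECs was -0.8 (SE 0.24, edgeR adjusted p = 0.0242). Rora was lower in KO hearts than in WT hearts in 3 of 3 libraries and within the WT range in 2 of 3 KO EC libraries, the third being level with the lowest WT library at 23.2 CPM. It was the only one of the 7 members to pass this test, which 28.8% of all genes passed, and the call was lost with length-scaled TPM and with the offset for length and GC content.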

How the results depend on the processing

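Over 546 values of the members under alternative settings, 469 kept their direction and their side of the threshold, 25 lost and 14 gained the call, and 38 changed sign. In heart 5 members passed, 3 in the fit of all 13 libraries, 1 with a 2-fold minimum and 4 to 6 with 1 library left out. In ECs 0 passed, 1 with DESeq2, 1 in the fit of all 13 libraries and 0 to 1 with 1 library left out. In the interaction 1 passed, 0 with length-scaled TPM, 0 with a 2-fold minimum, 2 with the offset for length and GC content and 0 to 3 with 1 library left out. Between tissues 3 passed, 1 with a 2-fold minimum and 2 to 4 with 1 library left out. Of the other clock lists 5 genes passed in ECs, 10 with DESeq2 and 2 to 8 with 1 library left out (2 without EC WT 1, EC KO 2 or EC KO 3, 3 without EC WT 2, 8 without EC WT 3), and in heart 31, 19 to 29 with 1 library left out (19 without heart KO 2). Calls over all genes moved too. In ECs they were 2766 of 15301 genes in the main fit and 4033 with DESeq2. They were 1379 without EC WT 1, 1665 without EC WT 2 and 3596 without EC WT 3. Without EC KO 1, EC KO 2 or EC KO 3 they were 1583, 1042 and 638. In heart they went from 4618 of 13816 genes to 2888 without heart KO 2. The call was lost in ECs for Sirt1 without EC WT 1, EC WT 2, EC KO 2 or EC KO 3, for Prkaa2 without EC WT 1, EC KO 1, EC KO 2 or EC KO 3 and for Pdk4 without any of these libraries or EC WT 2. In heart Usp7, Bmal2, Rorb, Ucp3, Fkbp5, Ppp1cb, Por, Klf9 and Csnk2b each lost it without at least 1 library (adjusted p up to 0.11).

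The following changed sign. In ECs, upper-quartile normalization gave 0.06 for Nfil3 and 0.02 for Rora, length-scaled TPM -0.02 for Clock and 0.03 for Nfil3, the offset -0.37 for Clock, 0.13 for Nfil3 and -0.15 for Sirt1, the fit of all 13 libraries -0.02 for Clock, and leaving out EC KO 2 and EC KO 3 together -0.10 for Cry1 and 0.77 for Nfil3. In heart, Npas2 was 0.01 with no filter, 0.13 with the offset and 0.07 with the replicate block, and Clock 0.45 with the offset. In the interaction the offset gave 0.79 for Clock and 0.02 for Rora. The cause was not tested. Leaving out 1 library gave, in ECs, -0.46 to 0.96 for Bmal1, -0.94 to 1.03 for Npas2, -0.15 to 0.2 for Clock, -0.08 to 0.65 for Cry1, -0.67 to 0.42 for Nfil3 and -0.12 to 0.03 for Rora, in heart -0.26 to 0.11 for Npas2, in the interaction -1.0 to 0.96 for Npas2, -0.36 to 0.03 for Clock and -0.01 to 0.72 for Cry1, and between tissues -0.55 to 0.53 for Npas2.

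Replicate numbers are shared between groups. Over all genes, same-numbered libraries deviated together weakly or not at all (r = 0.18, 0.04 and 0.09 in ECs and -0.03, 0.08 and 0.04 in heart). This does not settle whether the numbers pair them, and the main fits left them unpaired. In ECs the replicate block gave 0.29 for Bmal1, 0.09 for Npas2 and -0.13 for Nfil3, and no member was called. Their SEs were 0.36, 0.28 and 0.19 with the block and 0.60, 0.74 and 0.49 without it. With the replicate block, Cry1 in heart was 0.52 (adjusted p = 0.106) and no longer called, and the genes called in heart went from 4618 to 2899. Upper-quartile normalization moved the median of all genes between tissues to -0.19. Low counts limit Bmal1, Npas2, Cry1 and Nfil3 in heart WT 1 (29 to 48 estimated counts).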
